A study of Mus musculus with 66 samples.

Results

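Hippocampal RNA of 12-month-old C57BL/6 mice was compared 3 months after injection (3 mpi) of brain extract from Alzheimer's disease (AD) with that of mice given control brain extract (Ctrl). The comparison takes 12 of the 66 libraries of the series: 6 labelled 12mo_3mpi_AD and 6 labelled 12mo_3mpi_Ctrl, chosen by the labels for age, time and treatment. Both groups share strain, tissue and time, and the labels name no transgene or other allele in either. They do not say whether 12 months was the age at injection or at collection, where in the brain the extract was placed, or whether each library is a separate animal. The p-values below therefore measure the spread between libraries. Other AD and Ctrl libraries set the difference at 3 mpi beside those at 1 mpi (6 AD, 5 Ctrl) and 5 mpi (7 AD, 7 Ctrl) in 12-month mice. It is also set beside that at 3 mpi in 3-month mice (5 AD, 5 Ctrl). The limma fit takes its spread, and so its errors, intervals and p-values, from all 37 libraries of 12-month mice. The comparison between ages is fitted on all 66 libraries.

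As background, Alzheimer's disease brain contains misfolded tau, which can template the misfolding of a recipient's own tau and lead to deposits that spread between connected regions. Tau deposits are commonly accompanied by microglia that express a Trem2-dependent programme of lipid-handling and lysosomal genes, and by reactive astrocytes that express Gfap and complement C3. Type I interferon, which glia and other cells can release, induces a shared set of antiviral genes. The hippocampus holds the granule cells of the dentate gyrus, marked by Prox1, and the pyramidal cells of fields CA1 to CA3, and it lies against ventricles that contain choroid plexus.

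The 12 libraries held between 42462638 and 51927395 reads in genes, with a mean of 46181688 in AD and 46550302 in Ctrl libraries (exact permutation test, two-sided, p = 0.818). Levels below are the deposited values, in reads scaled to library size, and fold changes are on the scale of log2(value + 1), which understates the change of low genes. Levels are not corrected for gene length, so they are not compared between genes. Markers of all hippocampal fields were present, but markers of neighbouring tissue varied widely. Ttr, the thyroid hormone carrier made by choroid plexus, had 636, 210, 9329, 4340, 162 and 218 in AD 1 to AD 6, against 165, 170, 267, 1932, 5030 and 200 in Ctrl 1 to Ctrl 6. The first principal component, 30.9% of the variance, placed AD 3, AD 4, Ctrl 5 and Ctrl 4 at its high end. The Y-linked gene Ddx3y was high in 3 AD libraries (AD 1, 3 and 4) and 3 Ctrl libraries (Ctrl 1, 2 and 4), and the X-inactivation RNA Xist in the other 3 of each group. Within the libraries with high Ddx3y, Xist stood at 3.74, 3.27 and 2.95 in AD 1, 3 and 4, against 0.477, 0.533 and 0.480 in Ctrl 1, 2 and 4.

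No gene of the 20084 tested differed between AD and Ctrl libraries at an adjusted p under 0.05 in limma (0%; smallest adjusted p = 0.995), and none did in edgeR's quasi-likelihood test or in DESeq2 on the recovered reads. At an unadjusted p under 0.05 there were 796 genes (3.96%), 389 with higher (1.94%) and 407 with lower levels in AD (2.03%), where 1004.2 would be expected if no gene differed. Over all genes the median log2 fold change was 0.00 and 51.6% were above 0. The 95% interval of the fold change had a median half-width of 0.17, and for 14613 of the 14738 genes with a mean log2 level of at least 1 (99.2%) it lay within -1 and 1. Every gene named below is accordingly given as values that did not pass the test.

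Among the genes higher in AD by the smallest unadjusted p was Pdzph1, a gene named for its PDZ and pleckstrin homology domains. It had 0.930, 1.20, 1.42, 1.48, 1.32 and 1.54 in AD 1 to 6, against 0.590, 0.733, 1.16, 0.633, 0.848 and 0.721 in Ctrl 1 to 6. AD libraries averaged 1.32 ± 0.22 and Ctrl libraries 0.781 ± 0.206 (SD, n = 6 each). Ctrl 3 lay above AD 1 and no other AD library, and the log2 fold change was 0.38 ± 0.10 (SE; unadjusted p = 0.000765, adjusted p = 0.995). Trim7, a ubiquitin ligase of the tripartite-motif family, ranged from 2.45 to 3.12 in AD libraries, with a median of 2.68, and from 1.502 to 2.33 in Ctrl libraries, with a median of 1.92. Its 2 groups did not overlap, and the fold change was 0.36 ± 0.10 (SE; unadjusted p = 0.00145, adjusted p = 0.995). Rnf181, another ubiquitin ligase, ranged from 50.7 to 58.4 in AD libraries (median 55.2) and from 45.6 to 51.5 in Ctrl libraries (median 49.9). Its groups overlapped at their edges, with a fold change of 0.15.

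Gal3st1, which sulfates the myelin lipid galactosylceramide, ranged from 4.39 to 6.33 in AD libraries (median 5.44) and from 3.25 to 5.20 in Ctrl libraries (median 3.88), a fold change of 0.32 ± 0.10 (SE; adjusted p = 0.995). Nme9, a nucleoside diphosphate kinase family member with a thioredoxin domain, ranged from 1.06 to 2.14 in AD libraries (median 1.39) and from 0.421 to 1.45 in Ctrl libraries (median 0.685). Ctrl 5, with 1.45, lay far above the other Ctrl libraries for Nme9, and the groups overlapped through that library. The remaining genes of this direction were Rinl (0.36), Amz1 (0.30), Sema4g, a semaphorin (0.25), Slc25a42, a mitochondrial coenzyme A carrier (0.19), and Crat, carnitine acetyltransferase of acyl-group metabolism (0.16), given as log2 fold changes. In each of the 10 genes all 6 AD libraries lay above the Ctrl mean. The genes were picked by the smallest p in this direction in these same libraries, so this adds no further evidence.

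In the opposite direction, Lmo7, which encodes a LIM-domain protein of cell junctions, had 126, 116, 102, 119, 121 and 108 in AD 1 to 6, against 143, 147, 128, 127, 125 and 127 in Ctrl 1 to 6. All but 1 of the AD libraries lay below every Ctrl library, and the log2 fold change was -0.20 ± 0.06 (SE; unadjusted p = 0.00140, adjusted p = 0.995). Lingo2, a leucine-rich repeat protein of neurons, ranged from 15.3 to 20.3 in AD libraries (median 17.1) and from 18.3 to 23.8 in Ctrl libraries (median 21.3), a fold change of -0.28. Wnt9a, a secreted Wnt ligand, ranged from 4.21 to 6.49 in AD libraries (median 6.10) and from 6.23 to 10.7 in Ctrl libraries (median 7.69), a fold change of -0.41. Both genes overlapped between the groups at the edge of their ranges. Serpind1, the thrombin inhibitor heparin cofactor II, ranged from 3.94 to 9.47 in AD libraries (median 8.08) and from 7.12 to 17.9 in Ctrl libraries (median 13.2), a fold change of -0.72. H2-Q1, a class I histocompatibility gene with close paralogs among which reads may be split, ranged from 0.746 to 3.80 in AD libraries (median 2.87) and from 2.56 to 6.97 in Ctrl libraries (median 5.22), a fold change of -0.81. In Serpind1 and H2-Q1 the lowest library was AD 6, and Ctrl 3 was the lowest of its group. Mrgprf (-0.54), Lnp1 (-0.51), Gadl1, a decarboxylase (-0.38), Prox1os (-0.38) and Gask1b (-0.30) made up the rest of the 10. Prox1os lies antisense to Prox1, and because no source used here gives the use of strand in counting, the reads of these 2 genes cannot be told apart.

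**Figure D1:**
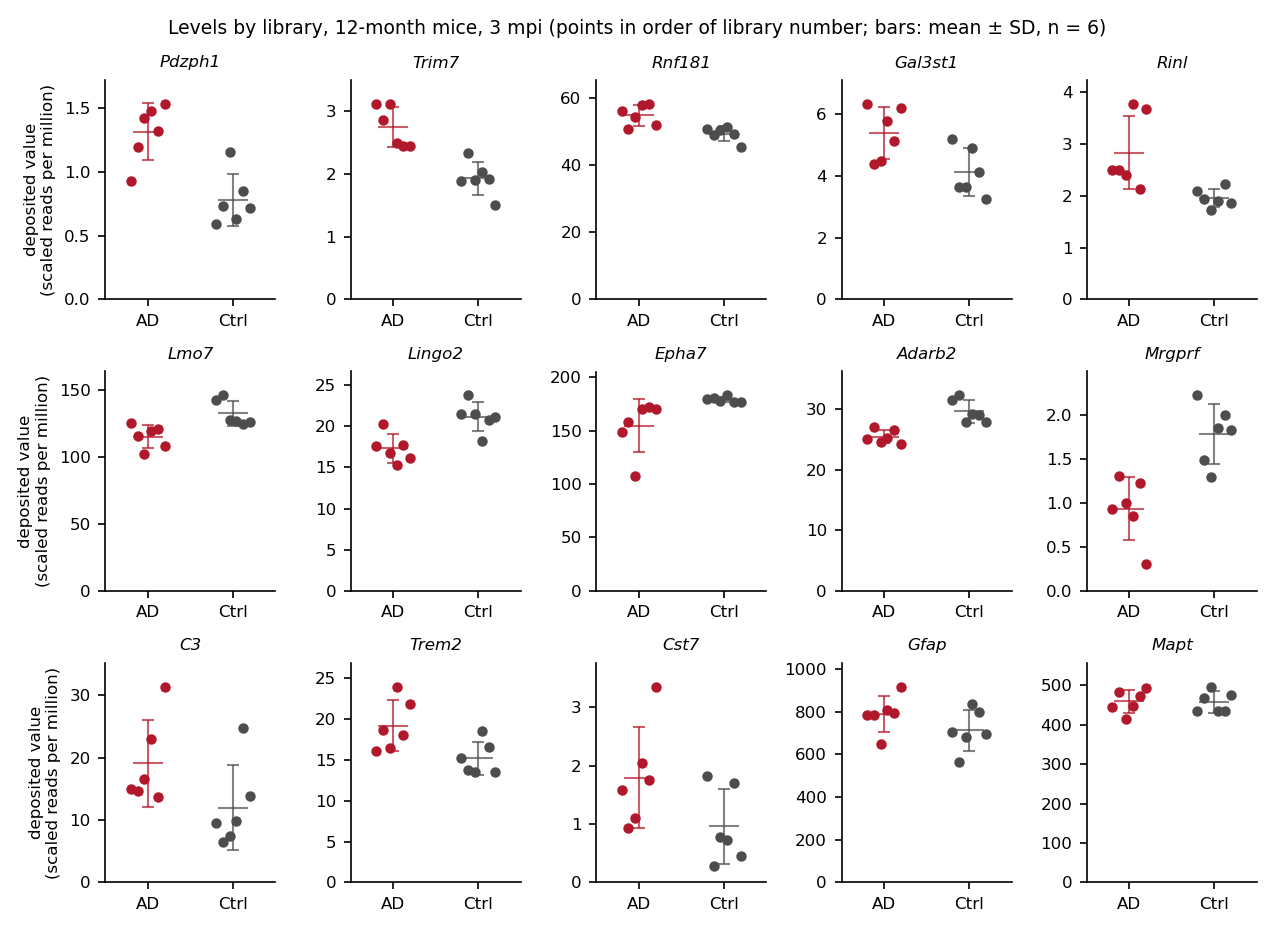
Levels of 15 genes (deposited value, scaled to library size; linear axes from 0) in the 6 AD and 6 Ctrl libraries at 3 mpi; points are libraries and bars the mean ± SD. Trim7, Epha7 and Adarb2 had no overlap between groups, while Gfap and Mapt overlapped across most of their range.

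Groups without overlap were few, and some are expected among this many genes even if no gene differs. The number expected was not computed. All 6 AD libraries lay above all 6 Ctrl libraries for 20 genes (0.0996%) and below them for 16 genes (0.0797%). Besides Trim7, the genes above were led by Ifit3b, an interferon-induced gene whose reads may be shared with its close paralog Ifit3. It had 11.7, 11.2, 13.4, 11.7, 13.8 and 38.9 in AD 1 to 6, against a range from 7.995 to 11.1 in Ctrl libraries, a fold change of 0.53. Without AD 6, by far the highest library, it was 0.26. Sp7 (0.34), a transcription factor known from bone, Crb1 (0.32), a cell polarity protein, and Zfp202 (0.26), a zinc finger protein, followed. Among the genes below, Epha7, an ephrin receptor of axon guidance, had 149, 158, 107, 170, 172 and 170 in AD 1 to 6, against a range from 177 to 183 in Ctrl libraries. AD 3 was far below the other AD libraries, and the fold change of -0.23 stood at -0.10 without AD 1 and AD 3. Adarb2, an RNA-editing family member expressed by interneurons, ranged from 24.3 to 27.1 in AD libraries (median 25.2) and from 27.9 to 32.4 in Ctrl libraries (median 29.2), a fold change of -0.21. Thsd7a (-0.29), Asb4 (-0.26) and Sh3tc1 (-0.24) completed the 5 with the largest fold changes.

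Across 42 lists of cell type markers and pathways, covering 705 tested genes, 0 members were called and 27 had an unadjusted p under 0.05 (3.83%, against 3.96% of all genes tested). By direction, 1.94% of all genes tested had such a p with a higher and 2.03% with a lower level in AD. The counts of single lists below stand beside these shares. None of the list members was free of overlap between groups, against 0.0996% of all genes with AD above and 0.0797% with AD below Ctrl. The median log2 fold change was above 0.1 in 8 lists, below -0.1 in 2 and between these bounds in 32. Leaving out 1 library at a time turned the sign of 21 medians, 20 of them within these bounds and the other that of choroid plexus. In bulk tissue, fewer cells of a type and less RNA per cell cannot be told apart.

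**Figure D2:**
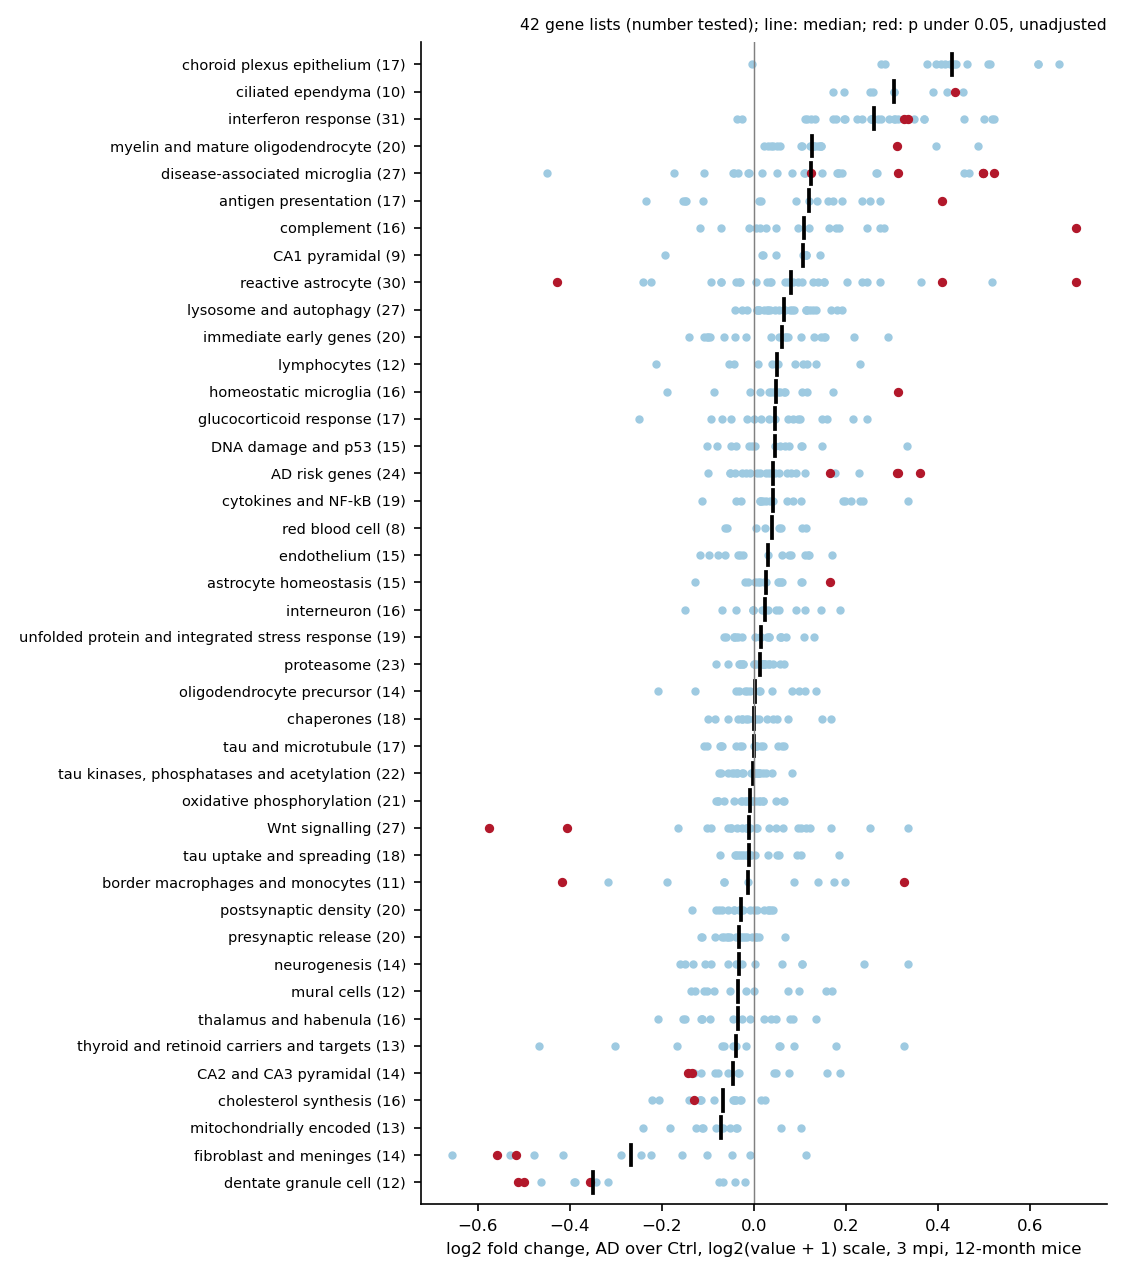
Log2 fold change (AD over Ctrl, log2(value + 1) scale) of each tested member of the 42 lists; the black line is the median of a list and red points had an unadjusted p under 0.05. Choroid plexus, ependyma and interferon lists lay furthest to the right, with medians of 0.43, 0.30 and 0.26, and dentate granule cell and meninges lists furthest to the left, with medians of -0.35 and -0.27.

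Of 27 genes of disease-associated microglia, 19 were higher and 8 lower on average in AD libraries. Their median log2 fold change was 0.12, against 0.00 over all genes, or 0.08 without AD 4 and 0.16 without AD 2. Of these microglial genes 5 had an unadjusted p under 0.05, all higher, against 1.94% higher over all genes tested. Trem2, the lipid-sensing receptor of these cells, had 16.1, 18.6, 16.5, 23.95, 18 and 21.8 in AD 1 to 6, against 15.2, 13.8, 13.4, 18.5, 16.6 and 13.5 in Ctrl 1 to 6. AD 4 and AD 6 were the 2 highest libraries, the groups overlapped, and the fold change was 0.31 ± 0.10 (SE; unadjusted p = 0.00497, adjusted p = 0.995). Cst7, the cysteine protease inhibitor cystatin F, ranged from 0.928 to 3.36 in AD libraries (median 1.67) and from 0.289 to 1.82 in Ctrl libraries (median 0.753), a fold change of 0.52. Lgals3, a galectin (0.50), Gpnmb, a lysosome-associated membrane glycoprotein (0.50), and Timp2, a metalloprotease inhibitor (0.12), were the others. Spp1, the secreted protein osteopontin, stood lowest in the list with a fold change of -0.45; it ranged from 16.6 to 51.9 in AD libraries (median 27.9) and from 23.7 to 49.8 in Ctrl libraries (median 41.7). Homeostatic microglia genes showed a median of 0.05 over 16 members, 13 of them higher, or 0.02 without Ctrl 3 and 0.08 without Ctrl 4. In this list 1 member, Trem2 itself, had an unadjusted p under 0.05.

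Complement genes had a median of 0.11, with 13 of 16 members higher, or 0.02 without AD 4 and 0.17 without AD 5. C3, the central component that opsonises targets, had 15.0, 14.7, 16.7, 23.1, 13.7 and 31.4 in AD 1 to 6, against 9.49, 6.44, 7.53, 9.88, 24.8 and 13.9 in Ctrl 1 to 6. AD libraries averaged 19.1 ± 6.9 and Ctrl libraries 12.0 ± 6.8 (SD, n = 6 each), with Ctrl 5 above all but 1 of the AD libraries. The fold change of 0.70 ± 0.30 (SE; unadjusted p = 0.0236, adjusted p = 0.995) ranged from 0.55 without AD 6 to 0.92 without Ctrl 5. Reactive astrocyte genes had a median of 0.08, with 21 of 30 higher, or 0.04 without Ctrl 2 and 0.13 without Ctrl 5. C3 and the immunoproteasome subunit Psmb8 (0.41) had an unadjusted p under 0.05 in the higher direction. Sphk1, a sphingosine kinase (-0.43), had one in the lower direction. Gfap, the astrocyte filament protein, ranged from 651 to 919 in AD libraries (median 790) and from 564 to 837 in Ctrl libraries (median 699). Its groups overlapped, and the fold change was 0.15, or 0.09 without Ctrl 2 and 0.21 without AD 3.

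C4b, complement component C4, had 178, 172, 175, 264, 162 and 268 in AD 1 to 6, against 174, 126, 142, 183, 221 and 156 in Ctrl 1 to 6. AD 4 and AD 6 were the 2 highest libraries for C4b, as for C3 among the AD libraries, and the fold change of 0.27 had a 95% interval from -0.10 to 0.64. Clec7a, a receptor for fungal glucans expressed by activated microglia, ranged from 2.72 to 9.07 in AD libraries (median 4.54) and from 1.89 to 5.16 in Ctrl libraries (median 3.13). Its fold change was 0.47, or 0.31 without AD 6 and 0.595 without AD 1. Groups also overlapped for the integrin Itgax (0.27), the lysosomal protein Cd68 (0.15), the protease inhibitor Serpina3n (0.13), Aif1, which encodes IBA1 (0.12), and the lipid carrier Apoe (0.11). Without AD 6, Serpina3n stood at 0.06 and Aif1 at 0.04. Without Ctrl 3, Cd68 stood at 0.08 and Apoe at 0.07, and without Ctrl 2 Itgax stood at 0.16. At the other end, Serpina3n and Aif1 stood at 0.19 without AD 3. Cd68 reached 0.21 and Itgax 0.38 without Ctrl 5, and Apoe 0.16 without Ctrl 4. Of 24 mouse counterparts of Alzheimer's disease risk genes, 17 were higher (median 0.04, or 0.03 without AD 6 and 0.07 without AD 2). The 4 with an unadjusted p under 0.05 were Trem2, Abi3, a microglial regulator of actin (0.31), Ms4a6d (0.36) and Clu, the chaperone clusterin (0.16). All 4 were higher, against 1.94% higher over all genes tested.

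Of 31 interferon-response genes, 29 were higher on average in AD (median 0.26). An unadjusted p under 0.05 was found for 2, against 1.94% higher over all genes tested. They were Eif2ak2, the RNA-sensing kinase that halts translation (0.33), and Ifi27 (0.33). The mean log2 level of the list was 2.90, 2.73, 3.15, 2.85, 2.84 and 3.88 in AD 1 to 6, against 2.82, 2.55, 2.86, 2.90, 2.82 and 2.82 in Ctrl 1 to 6. AD 6 was furthest from the rest, AD 3 and, narrowly, AD 1 also lay above every Ctrl library, and Ctrl 2 was the lowest. AD 6 was the highest of the 12 libraries for 27 of the 31 genes, where it was highest for 12.5% of all genes tested. Ctrl 2 was the lowest for 16 of the 31, but its share over all genes was not counted. It was also the lowest for 11 of 27 disease-associated microglia and 11 of 30 reactive astrocyte genes, and for 0 of 20 presynaptic genes. Its count is thus not particular to interferon genes. Without AD 6 the median of the list was 0.12, and without AD 2 it was 0.35. Cxcl10, a chemokine that attracts T cells, had 1.88, 1.18, 1.59, 1.93, 2.10 and 10.8 in AD 1 to 6, against a range from 1.02 to 1.97 in Ctrl libraries. Isg15, a ubiquitin-like protein conjugated to other proteins, had 2.7, 2, 3.72, 1.72, 2.93 and 11.4 in AD 1 to 6, against a range from 1.502 to 4.15 in Ctrl libraries. Ifit1, which binds foreign capped RNA, had 28.9 in AD 6 and from 7.92 to 11.5 in the other AD libraries, against a range from 6.86 to 16.5 in Ctrl libraries. In all 3 genes the other 5 AD libraries overlapped the Ctrl libraries. AD 6 was also the highest of the 12 for 11 of 17 antigen presentation genes (median 0.12, or 0.03 without AD 6 and 0.19 without AD 5).

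Because these genes were high together in 1 library, their promoters are shown, as RefSeq gives them for GRCm38.p6: the 250 bases before the start of transcription, on the gene's strand. Capitals mark GAAANNGAAA on either strand, a spacing of the repeat found in interferon-stimulated response elements. Overlapping matches run together, as in Isg15, where 3 matches overlap.
Cxcl10 (chr5:92348890-92349139, minus strand): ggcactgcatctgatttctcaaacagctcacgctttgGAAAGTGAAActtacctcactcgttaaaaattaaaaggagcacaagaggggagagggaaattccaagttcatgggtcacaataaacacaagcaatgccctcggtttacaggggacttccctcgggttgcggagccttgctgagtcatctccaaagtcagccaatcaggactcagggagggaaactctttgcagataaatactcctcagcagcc
Isg15 (chr4:156200819-156201068, minus strand): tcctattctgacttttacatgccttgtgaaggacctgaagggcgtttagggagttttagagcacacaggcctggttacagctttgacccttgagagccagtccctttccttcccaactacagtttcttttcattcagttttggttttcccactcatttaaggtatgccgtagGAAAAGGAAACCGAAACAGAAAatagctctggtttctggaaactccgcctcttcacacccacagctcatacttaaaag
Ifit1 (chr19:34640639-34640888, plus strand): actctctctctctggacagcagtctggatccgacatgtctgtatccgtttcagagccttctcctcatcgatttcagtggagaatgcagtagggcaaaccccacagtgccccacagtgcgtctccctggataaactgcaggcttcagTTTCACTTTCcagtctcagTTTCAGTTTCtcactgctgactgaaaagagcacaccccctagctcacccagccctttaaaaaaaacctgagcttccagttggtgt
The match in Cxcl10 began 213 bases before the start, the first in Isg15 78 bases and the 2 in Ifit1 104 and 85 bases. These letters occurred in the windows of 10 of the 22 interferon-response genes with a window (45.5%), and in 936 of 27025 genes overall (3.46%). A match of letters describes the sequence and shows no bound factor.

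Dentate granule cell markers were the one list in which every tested gene was lower on average in AD: 12 of 12, with a median of -0.35. Of these, 3 had an unadjusted p under 0.05, against 2.03% lower over all genes tested. The mean log2 level of the list was 4.44, 5.22, 4.51, 5.10, 5.21 and 5.12 in AD 1 to 6, against 5.24, 5.37, 5.07, 5.21, 5.38 and 5.06 in Ctrl 1 to 6. AD 1 and AD 3 lay below all other libraries, while the other 4 AD libraries lay within the range of the Ctrl libraries. Prox1, the transcription factor that defines granule cells, had 61.0, 121, 57.0, 98.9, 121 and 118 in AD 1 to 6, against 108, 122, 121, 117, 128 and 106 in Ctrl 1 to 6. Lct, lactase, a marker of these cells in mouse, had 21.4, 38.6, 12.6, 32.3, 44.1 and 42.9 in AD 1 to 6, against a range from 39.1 to 50.5 in Ctrl libraries. Both genes were lowest in AD 3 and AD 1, at about the same depth as the other libraries. Dsp, the desmosome protein desmoplakin, ranged from 14 to 39.8 in AD libraries (median 34.0) and from 33.3 to 48.7 in Ctrl libraries (median 38.8). Log2 fold changes were -0.51 for Lct, -0.50 for Dsp, -0.36 for Stxbp6, a regulator of vesicle fusion, and -0.34 for Prox1. AD 1 and AD 3 were the 2 lowest of the 12 libraries for 9 of the 12 genes, as they were for 3.64% of all genes tested. Leaving out both libraries, a choice made after seeing the data, gave a median of -0.06 (-0.23 without AD 3 alone) and a fold change of -0.03 for Prox1. Without AD 2 alone the median was -0.43.

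CA1 markers had a median of 0.11, with 8 of 9 higher, and AD 1 held the highest mean log2 level of this list, 6.49, against a range from 6.23 to 6.36 in the other AD libraries and from 6.06 to 6.40 in Ctrl libraries. Ctrl 4 and Ctrl 5 were the 2 lowest libraries. The median was 0.05 without Ctrl 4, 0.12 without Ctrl 6 and 0.00 without the 4 libraries with Ttr above 1000. CA2 and CA3 markers had a median of -0.05, with 9 of 14 lower. An unadjusted p under 0.05 was found for 2, Cpne4, a calcium-dependent membrane-binding copine (-0.14), and Nectin3, a cell adhesion molecule (-0.14). Over all genes tested, 2.03% were lower at that threshold. AD 3, low for granule cell markers too, was the lowest library for 8 of these 14 genes (10.6% of all genes tested), and the median was -0.01 without AD 3 and -0.08 without AD 5. The part that the sampled portion of the hippocampus has in these differences was not tested.

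**Figure D3:**
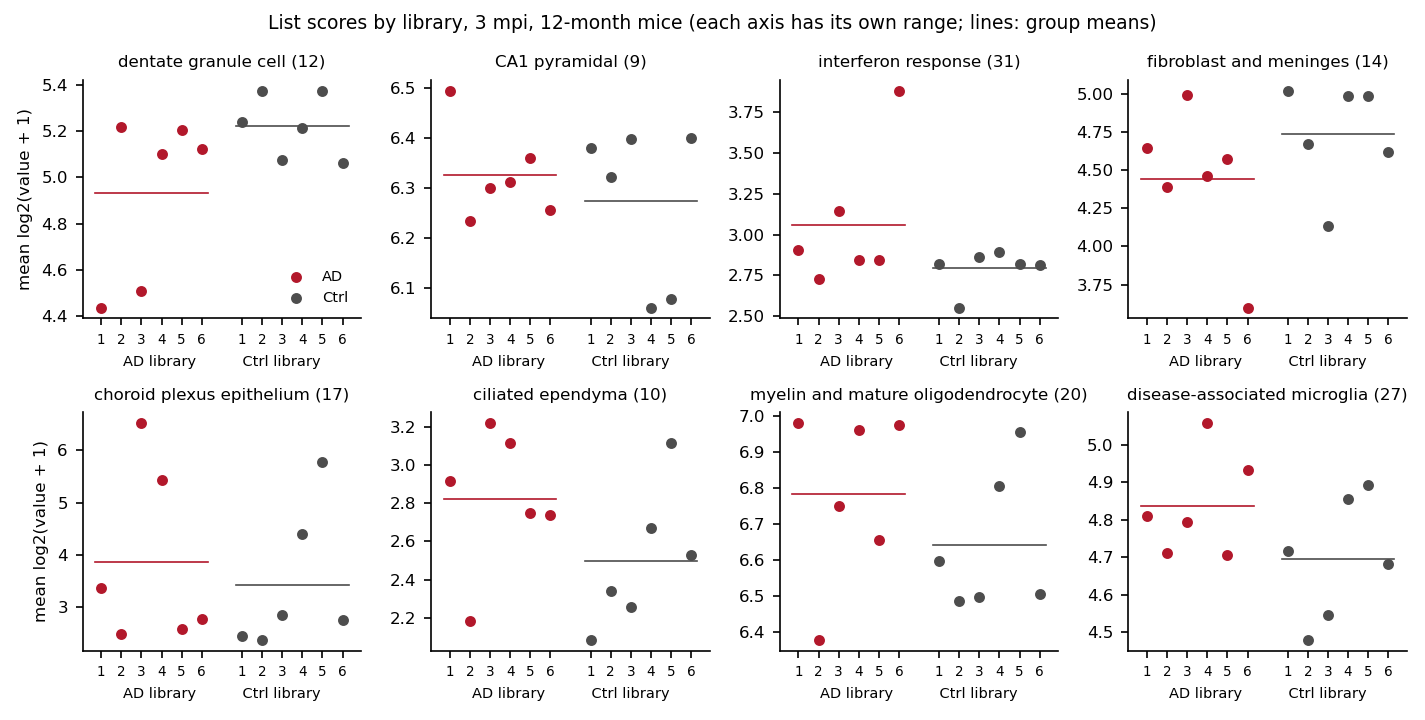
Mean log2(value + 1) over the members of 8 lists in each AD library (left) and Ctrl library (right), numbered 1 to 6, with lines at the group means; each panel has its own axis range. AD 1 and AD 3 were lowest for dentate granule cell genes, AD 6 was highest for interferon and lowest for meningeal genes, and AD 3, Ctrl 5, AD 4 and Ctrl 4 were highest for choroid plexus genes.

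Choroid plexus genes had a median of 0.43, with 16 of 17 higher, but 0 had an unadjusted p under 0.05. The mean log2 level of the list ran from 2.49 to 6.52 in AD libraries and from 2.37 to 5.77 in Ctrl libraries. AD 3 was the highest library for all 17 genes (13.6% of all genes tested), and the median was -0.09 without AD 3 and 0.94 without Ctrl 5. Ependymal genes, of the ciliated cells that line the ventricles, had a median of 0.30, with all 10 tested members higher. The median was 0.22 without Ctrl 1 and 0.44 without Ctrl 5. AD 3 was the highest library for 6 of the 10 (13.6% of all genes tested), and Ctrl 1 the lowest for 6. In the mean log2 level of the list, Ctrl 5, with 3.116, lay above every AD library but AD 3, with 3.218. Tmem212, with an unadjusted p of 0.0190, ranged from 1.77 to 5.08 in AD libraries (median 4.03) and from 1.77 to 3.65 in Ctrl libraries (median 2.42). Foxj1, the transcription factor of motile cilia, ranged from 7.77 to 21.4 in AD libraries (median 13.5) and from 6.64 to 17.8 in Ctrl libraries (median 8.63), a fold change of 0.42. Fibroblast and meninges genes had a median of -0.27, with 13 of 14 lower. The transporters Slc22a6 (-0.56) and Slc6a13 (-0.52) had an unadjusted p under 0.05, against 2.03% lower over all genes tested. AD 6 was the lowest library for 12 of the 14 (13.2% of all genes tested), and the median was -0.11 without AD 6 and -0.44 without Ctrl 3. Fmod, the matrix protein fibromodulin, had 41.3, 35.8, 43.5, 22.5, 45.1 and 9.35 in AD 1 to 6, against a range from 25.1 to 66.9 in Ctrl libraries. Serpind1 and H2-Q1, described above, had their lowest values in AD 6 too; the part of meningeal tissue in those values was not tested.

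All 20 myelin and mature oligodendrocyte genes were higher on average in AD, with a median of 0.13. The median was 0.07 without AD 1 and 0.19 without AD 2, and 1 gene had an unadjusted p under 0.05. That gene, Trf, the iron carrier transferrin, had 405, 302, 466, 538, 352 and 490 in AD 1 to 6, against 305, 299, 305, 367, 463 and 305 in Ctrl 1 to 6. AD 2 and Ctrl 5 ran against the difference, and the fold change was 0.31 ± 0.14 (SE; unadjusted p = 0.0333, adjusted p = 0.995). The mean log2 level of the list was 6.979, 6.961 and 6.973 in AD 1, AD 4 and AD 6, closely followed by Ctrl 5, with 6.953. AD 3 and AD 5, with 6.75 and 6.654, lay below Ctrl 4, with 6.804, and above Ctrl 1, 2, 3 and 6. AD 2, with 6.38, was the lowest of all 12 libraries. It held the lowest value for 12 of the 20 genes (8.58% of all genes tested). With the myelin level of each library as a covariate, the medians of the microglial, complement and interferon lists were 0.06, 0.00 and 0.12. Without it they were 0.12, 0.11 and 0.26. The myelin level was itself higher on average in AD libraries, and its part in these medians was not tested.

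Neuronal, tau and metabolic lists lay close to 0. Mapt, the tau gene, ranged from 414 to 494 in AD libraries (median 460) and from 433 to 497 in Ctrl libraries (median 452), a fold change of 0.01 with a 95% interval from -0.09 to 0.10; its sign turned to -0.01 under upper-quartile scaling. App, which encodes the amyloid precursor protein, had a fold change of -0.02 and an interval from -0.10 to 0.06. The 17 tau and microtubule genes had a median of 0.00, and 8 were higher. Presynaptic and postsynaptic genes had medians of -0.03 each, with 16 of 20 and 13 of 20 lower. Cholesterol synthesis genes had a median of -0.07 with 14 of 16 lower, of which 1, Cyp51, a sterol demethylase, had an unadjusted p under 0.05 (-0.13). The mitochondrially encoded genes likewise had a median of -0.07, with 11 of 13 lower, and nuclear genes of oxidative phosphorylation one of -0.01. Immediate early genes, which follow neuronal activity, had a median of 0.06 with 12 of 20 higher.

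The 27 Wnt signalling genes tested had a median of -0.01, but the 2 members with an unadjusted p under 0.05 were both ligands and both lower. Over all genes tested, 2.03% were lower at that threshold. Wnt16 had 0.567, 0.907, 0.552, 0.543, 0.633 and 0.326 in AD 1 to 6, against 1.36, 1.60, 1.51, 1.81, 1.124 and 0.841 in Ctrl 1 to 6. All AD libraries but AD 2 lay below every Ctrl library, and the fold change was -0.58 ± 0.15 (SE; unadjusted p = 0.000403, adjusted p = 0.995). Wnt9a is given above. Wnt16 stood at 0.09 and 0.04 at 1 and 5 mpi, and Wnt9a at 0.13 and 0.14, as AD over Ctrl fold changes.

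The same contrast at the other times was set beside that at 3 mpi. At 1 mpi 1 gene was called (0.00498%) and 12.1% had an unadjusted p under 0.05; at 5 mpi 11 genes were called (0.0548%) and 8.49% had an unadjusted p under 0.05, against 3.96% at 3 mpi. These shares are descriptions, since each time has its own libraries and group sizes. Across 14718 genes the fold changes at 3 mpi correlated with those at 1 mpi at a Pearson r of 0.41 (Spearman rho 0.31, 59.9% with the same sign) and with those at 5 mpi at 0.23 (rho 0.20, 56.9%). With those of 3-month mice at 3 mpi the r was 0.07 (rho 0.12, 54.3%). These correlations are across genes, which are not independent replicates, and the 12-month comparisons share their scaling and fit but no library. The medians of the disease-associated microglia list were 0.29, 0.12 and 0.16 at 1, 3 and 5 mpi, of the complement list 0.37, 0.11 and 0.19, of the reactive astrocyte list 0.27, 0.08 and 0.19, and of the myelin list 0.33, 0.13 and 0.10. Trem2 had fold changes of 0.35, 0.31 and 0.22 at 1, 3 and 5 mpi, C3 of 1.32, 0.70 and 0.84, and Cst7 of 0.89, 0.52 and 0.44. The dentate granule cell median was -0.10, -0.35 and 0.08 at the 3 times, and -0.03 in 3-month mice at 3 mpi. Tgm1, a transglutaminase and the 1 gene called at 1 mpi, had fold changes of 0.83, 0.09 and 0.14 at 1, 3 and 5 mpi, and the proprotein convertase Pcsk6 of 0.30, 0.14 and 0.30. The choroid plexus median was 1.38, 0.43 and 0.46, furthest from 0 at 1 mpi like the glial lists. With the choroid plexus level of each library as a covariate, 0 genes were called at 3 mpi. The same covariate gave 0 calls for the difference between 3 and 1 mpi. Both counts were already 0 without the covariate, so they cannot show what it changes. The part of choroid tissue in the glial lists was not tested.

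**Figure D4:**
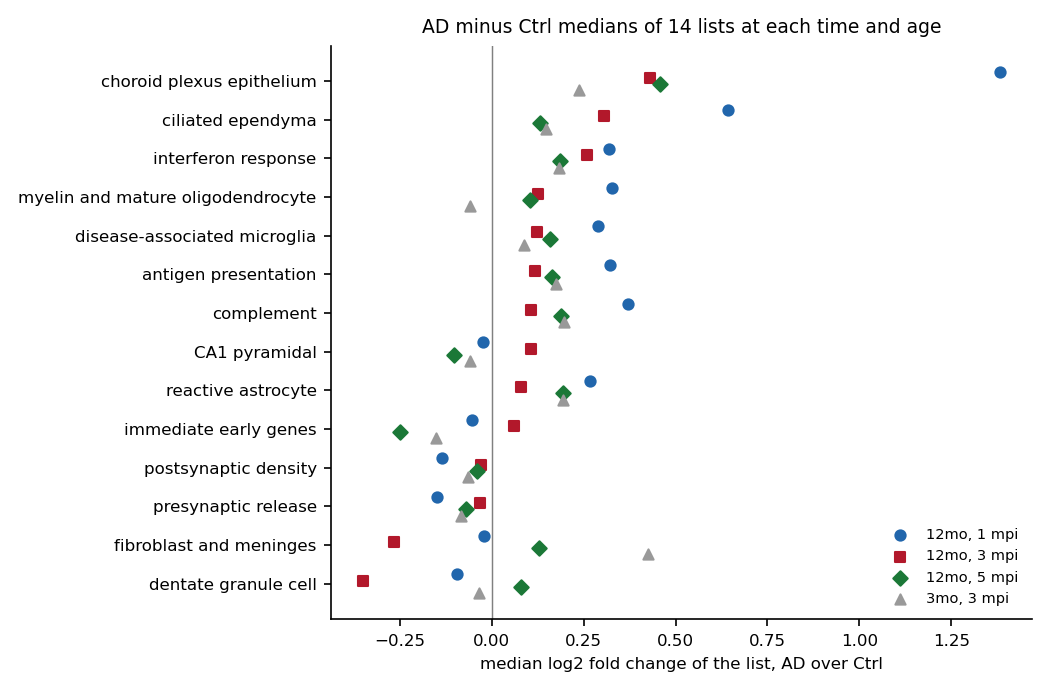
Median log2 fold change (AD over Ctrl) of 14 lists in 12-month mice at 1, 3 and 5 mpi and in 3-month mice at 3 mpi. Glial and myelin lists were furthest from 0 at 1 mpi, and dentate granule cell and meningeal lists were furthest below 0 at 3 mpi in 12-month mice.

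The difference between these effects was tested directly. No gene differed in its AD effect between 3 and 1 mpi at an adjusted p under 0.05 in limma (0%), with 884 genes at an unadjusted p under 0.05 (4.4%), and edgeR and DESeq2 called none. The smallest p-values belonged to Acap3 (0.28), Mier2 (0.33) and Nipal3 (0.20), with a higher AD effect at 3 mpi, and to Rer1, a protein of Golgi-to-endoplasmic reticulum retrieval (-0.29), Hebp2 (-0.48) and Uqcrb, a subunit of respiratory complex III (-0.21), with a lower one, as differences of log2 fold changes with an adjusted p of 0.979 each. Between 3 and 5 mpi 1 gene was called (0.00498%) and 868 had an unadjusted p under 0.05 (4.32%); edgeR called 2 and DESeq2 8. Gm13456, annotated as a processed pseudogene at chr2:40555752-40557116 (GRCm38) on the plus strand, had 6.31, 6.97, 5.89, 7.64, 6.31 and 6.13 in AD 1 to 6, against 7.92, 7.86, 6.94, 8.25, 6.47 and 8.23 in Ctrl 1 to 6 at 3 mpi. At 5 mpi it averaged 9.07 ± 1.65 in AD and 5.70 ± 0.57 in Ctrl libraries (SD, n = 7 each). At 1 mpi it averaged 8.76 ± 0.94 in AD (n = 6) and 8.56 ± 0.69 in Ctrl libraries (n = 5). Among the groups of 12-month mice, the Ctrl mean at 5 mpi was thus the lowest, and the AD mean at 5 mpi lay near both means at 1 mpi. The fold changes were -0.19 at 3 mpi and 0.57 at 5 mpi, a difference of -0.77 ± 0.13 (SE; limma, adjusted p = 0.0118). Reads of a processed pseudogene may be shared with its parent gene, so the level is uncertain. The call was lost with only the compared groups in the fit, where the adjusted p was 0.107, with the replicate number as a block, where it was 0.318, and without AD 1 and AD 3, where it was 0.138.

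**Figure D5:**
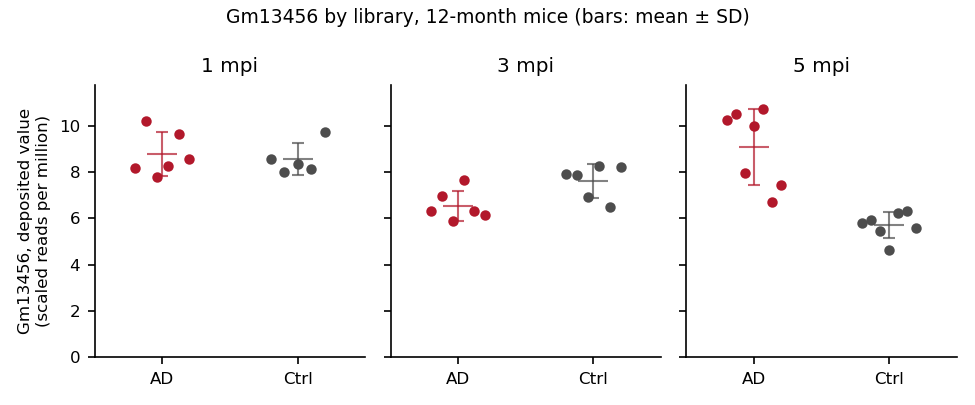
Level of Gm13456 (deposited value, scaled to library size) in each AD and Ctrl library of 12-month mice at 1, 3 and 5 mpi; points are libraries and bars the mean ± SD. At 5 mpi every AD library lay above every Ctrl library, and at 3 mpi AD libraries averaged 6.54 and Ctrl libraries 7.61.

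Other genes led the comparison of 3 with 5 mpi without passing: Aldh1a3, which makes retinoic acid, had fold changes of 0.31 and -0.42 at 3 and 5 mpi (difference 0.74 ± 0.17 SE, limma adjusted p = 0.252), and Mmp19, a matrix metalloprotease, of -0.29 and 0.45 (difference -0.74, adjusted p = 0.452). Of the 12 dentate granule cell genes, 3 had an unadjusted p under 0.05 for this difference, Dsp, Trpc6 and Stxbp6, with adjusted p-values of 0.999 in limma. Over all genes tested the share was 4.32%. AD 1 and AD 3, the 2 lowest libraries at 3 mpi for 9 of the 12 genes, enter this difference. Between 12-month and 3-month mice at 3 mpi no gene of 21297 differed in its AD effect at an adjusted p under 0.05 in limma (0%), and 717 had an unadjusted p under 0.05 (3.37%); edgeR called none and DESeq2 1. Pdzph1 had a fold change of 0.38 in 12-month and -0.11 in 3-month mice (difference 0.48 ± 0.15 SE, adjusted p = 1.00). Uqcrh, also of complex III, had -0.10 and 0.16 (difference -0.27 ± 0.07 SE), and the mitochondrially encoded mt-Nd4l -0.11 and 0.45.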

How the data were processed

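Per the labels' protocols, poly(A) RNA was made into libraries with NEBNext kits and random primers. The tools named are STAR, Picard and edgeR and the build is GRCm38, per the submitters' processing notes; for their versions, and for annotation, counting rule and strand, the sources used here give nothing. The authors deposited, for the 12-month and 3-month libraries separately, a signal per gene, which is CPM further divided by a scaling factor of the library. Dividing by the value of 1 read gave whole reads for 100% of values (tolerance 0.01 reads), and the 12-month factors equal TMM factors of those reads.

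Genes were kept by edgeR's filterByExpr on recovered reads (20084 genes). limma-trend was fitted to log2(value + 1) over the 37 libraries of 12-month mice with 1 mean per group, and p-values were adjusted by Benjamini-Hochberg, with calls at an adjusted p under 0.05. Differences between times used the same fit; the difference between ages used recovered reads of both tables scaled together (21297 genes). edgeR's quasi-likelihood test and DESeq2 on recovered reads, other scalings, filters, pseudocounts, covariates and left-out libraries were alternatives. R 4.3.3, limma 3.58.1, edgeR 4.0.16 and DESeq2 1.42.0 were used. All pairs of libraries within the AD and within the Ctrl group differed by more than sampling noise, and 0 columns of sample values were left unused.

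The comparison, the gene lists and their members were chosen with earlier results of these data known. Named genes are the 10 of smallest p in each direction with a mean log2 level of at least 1, leaving out gene models, up to 5 in each direction whose groups do not overlap, up to 4 of each list, fixed genes of glia and tau, and 3 in each direction for each difference between times or ages. Ttr, Gm13456, Ifit1, Isg15, Cxcl10, Trpc6, Spp1 and other list members beyond 4 were named after their values were seen. Gene types and coordinates are from GENCODE vM21 (96.6% of symbols matched) and promoters from RefSeq.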

Additional observations from a re-analysis of the deposited data

Results flagged for a closer look

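Single libraries lay far from the other 5 of their group for 16 of 210 groups of values examined. Chance alone flags about 1 in 20. The values examined include genes named after their values were seen, such as Cxcl10, Ifit1, Isg15 and Ttr. The count therefore cannot be compared with that rate. In AD 6, Cxcl10 (10.8), Isg15 (11.4), Ifit1 (28.9), Ifit3b (38.9), Usp18 (11.2), Psmb8 (11.1) and the mean log2 level of the interferon list (3.88) were far above the other AD libraries. These 7 values share 1 library and related genes, so they are not independent. In Ctrl 2 the interferon list stood far below the other Ctrl libraries, at 2.55. Ifit1 was far higher in Ctrl 3 (16.5), and Ifi27 (56.1), Nme9 (1.445) and Ttr (5030) were in Ctrl 5, than in the rest of the Ctrl group. Epha7 was far lower in AD 3 (107), App far higher in AD 1 (1890), mt-Co3 far higher in AD 2 (28.9) and Sh3tc1 far higher in Ctrl 4 (3.01) than in the other libraries of the group.

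Gm13456 differed in its AD effect between 3 and 5 mpi by -0.77 (limma, adjusted p = 0.0118), as described above; 5 of 6 AD libraries at 3 mpi lay below their Ctrl mean, and 7 of 7 AD libraries at 5 mpi lay above theirs.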

How the results depend on the processing

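The count of genes called between AD and Ctrl at 3 mpi stayed at 0 under each alternative run except no filter on low values, which called 2 lower gene models. The difference between 3 and 1 mpi called 0 throughout. For 3 against 5 mpi, where 1 gene was called, the count was 4 without a filter, 0 with only the groups compared, 2 in edgeR, 8 in DESeq2, and, added after seeing the data, 2 without the 4 libraries with Ttr above 1000 and 0 without AD 1 and AD 3. Leaving out 1 library at a time gave 1 to 2 calls. Between ages DESeq2 called 1 gene and the other alternatives 0. It could not be settled whether the numbers in the labels pair the samples. Correlations of same-numbered libraries ran from -0.39 to 0.32, and only AD 1 and AD 4 matched their same-numbered Ctrl library best. A fit with the number as a replicate block called 0 genes at 3 mpi and 0 for 3 against 5 mpi. For Gm13456 the difference was -0.77 with an adjusted p of 0.107 with only the groups compared, -0.77 with 0.318 under the block, and -0.72 with 0.138 without AD 1 and AD 3. Mapt, at 0.00585, was -0.0064 under upper-quartile scaling and ran from -0.0155 without AD 6 to 0.0351 without AD 3. Of the list medians, dentate granule cell moved to -0.06 without AD 1 and AD 3, and astrocyte homeostasis to 0.11 without the 4 libraries with high Ttr, against 0.03. Depth was similar in the AD and Ctrl libraries.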

Other observations

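Values of 4 genes known from mast cells were looked at after the results were seen, so they are a description. Cpa3, a mast cell carboxypeptidase, had 0.545, 0.474, 0.128, 0.217, 0.198 and 0 in AD 1 to 6, against 1.61, 0.733, 0.432, 0.502, 0.482 and 1.122 in Ctrl 1 to 6, with an adjusted p of 0.995 in limma. Tpsb2, a tryptase, ranged from 0 to 0.350 in AD libraries and from 0.222 to 0.807 in Ctrl libraries. The proteases Cma1 and Mcpt4 ranged from 0 to 0.318 and from 0 to 0.703 in AD libraries, against 0.184 to 0.613 and 0.138 to 0.953 in Ctrl libraries. The groups overlapped for all 4 genes, and AD 6, the library with the lowest meningeal genes, was listed at 0 for each.

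Prl, the pituitary hormone prolactin, varied widely within both groups. It ranged from 0.234 to 20.4 in AD libraries and from 0.400 to 44.3 in Ctrl libraries, and the immunoglobulin light chain Igkc ranged from 14.02 to 65.6 in AD libraries and from 7.40 to 123.5 in Ctrl libraries, with its highest values in Ctrl 5 and Ctrl 4.

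Among border macrophage and monocyte genes, Ly6c2, a monocyte antigen, ranged from 0.336 to 1.02 in AD libraries and from 0.160 to 0.567 in Ctrl libraries, while Cbr2, a carbonyl reductase of border macrophages, ranged from 0.586 to 1.46 in AD libraries and from 0.708 to 2.89 in Ctrl libraries. Both had unadjusted p-values under 0.05 (0.0291 and 0.0350) and an adjusted p of 0.995 in limma.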
